A study of Mus musculus with 9 samples.

Results

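The 10 genes described here are Nfe2l2, which encodes the transcription factor Nrf2, a set of genes that Nrf2 is known to control (Hmox1, Nqo1, Gclc, Gclm, Slc7a11, Txnrd1 and Srxn1), and the superoxide dismutase genes Sod2 and Sod3. They were chosen by symbol, as 10 of the 32671 genes in the deposited table, for their known roles, with earlier results of these data known. Messenger RNA of whole lung from wild-type C57BL/6 mice was sequenced at day 21 in 3 groups of 3 libraries. LNP mice had been challenged with bleomycin and given inhaled mCas9/gSting@DOPS lipid nanoparticles (LNP), named in the labels for Cas9, a gene-cutting nuclease, and for a guide to Sting, a sensor protein of innate immunity. Bleomycin mice had the challenge alone, with a DNA-damaging drug widely used to provoke lung fibrosis in rodents. Control mice had saline. Particles without the guide were not analysed here, so effects of guide and carrier cannot be told apart.

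Nrf2 is held in the cytoplasm by Keap1, which hands it to the proteasome. Oxidants and electrophiles modify Keap1, Nrf2 then collects in the nucleus, pairs with a small Maf protein and switches on genes that carry an antioxidant response element. The known targets make and recycle glutathione and thioredoxin, break down haem and detoxify quinones. Much of this control acts on the Nrf2 protein, which messenger RNA does not measure. In the lung, bleomycin chelates iron and generates oxygen radicals, and Nrf2-deficient mice are known to be more sensitive to it.

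Stretches upstream of the starts of some of these genes are shown first, chosen for the motif matches they hold. RefSeq start regions on GRCm38.p6 were held for 7 of the 10 genes, 9 regions in all since Txnrd1 has several starts, and the 250 bases upstream of each start were searched on both strands. The core letters of the antioxidant response element, TGACNNNGC, occurred in 3 of the 9 (Nfe2l2, Gclm and 1 Txnrd1 start), against 10.2% of 32851 such regions genome-wide. The letters TGAGTCA, the classical site of AP-1 factors, occurred at Srxn1 alone among the 9, in 2 copies, against 4.46% genome-wide. The copy at position -45 from the start (the base before the start being -1) continued into TGAGTCAGC, a form of the site bound by NF-E2 type factors paired with Maf proteins, which occurred in 0.347% genome-wide and overlaps the TGAGTCA it contains. Of the following sequences, printed 5′ to 3′ along each gene, Srxn1 covers chr2:152105324-152105523 on the plus strand, Nfe2l2 covers chr2:75704879-75704913 on the minus strand, Gclm covers chr3:122245407-122245447 on the plus strand and Txnrd1 covers chr10:82859098-82859138 on the plus strand. Capitals mark the matched letters, which lie on the other strand for Gclm and Txnrd1. No match to any of the patterns was found upstream of Slc7a11, Nqo1, Sod2 or the other Txnrd1 starts. A match describes these letters and shows no binding, and a link of matches to levels was not tested. Hmox1, Gclc and Sod3 are not shown.
Srxn1 upstream: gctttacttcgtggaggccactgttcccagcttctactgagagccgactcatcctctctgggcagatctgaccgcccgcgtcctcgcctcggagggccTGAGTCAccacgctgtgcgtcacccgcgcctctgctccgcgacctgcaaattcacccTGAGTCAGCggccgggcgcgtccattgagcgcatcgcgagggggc
Nfe2l2 upstream: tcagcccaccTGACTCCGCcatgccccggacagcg
Gclm upstream: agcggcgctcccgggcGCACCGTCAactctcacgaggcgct
Txnrd1 upstream: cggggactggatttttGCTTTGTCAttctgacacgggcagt

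Each library held from 56047830 to 69404903 gene counts. All 10 genes were among the 20794 that entered the test. The lowest count of any of the 10 in a library was 58, for Slc7a11. Levels are given as CPM, a gene's counts relative to a fixed library total after TMM scaling. The lung markers were present throughout, with 6 alveolar type 2 cell markers summing to 6485 CPM or more in every library. LNP replicate 3 stood apart, where 5 markers of skeletal muscle summed to 5957 CPM and 5 of squamous epithelium to 1705 CPM. The highest sums among the other 8 libraries were 50.56 and 7.26 CPM. LNP calls of the 10 genes that change without it are given both ways, and so are the counts of each gene list in LNP against bleomycin. Messenger RNA of Sting1, the guide's gene, stood at 44.3 to 62.0 CPM in LNP, 40.5 to 53.8 CPM in bleomycin and 18.4 to 23.9 CPM in control libraries, with a log2 difference of LNP from bleomycin of 0.22 (adjusted p = 0.48). Whether each library is a separate mouse is not stated in the labels, so the p-values cover the spread among these libraries, which may be technical.

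After bleomycin, Hmox1, Slc7a11, Srxn1, Txnrd1 and Gclc rose and Sod3 fell, whereas Nfe2l2, Nqo1, Gclm and Sod2 did not pass the test. At an adjusted p under 0.05, bleomycin against control gave 5 of the 10 genes as higher and 1 as lower, against 15.2% of all tested genes called higher, 18.5% called lower and 33.7% called in either direction. The groups did not overlap for 4 genes that were higher in bleomycin (Hmox1, Slc7a11, Txnrd1 and Srxn1) and for Sod3, which was lower, where 25.9% of all tested genes lay apart in the higher direction, 29.6% in the lower and 55.5% in either. The median log2 fold change of the 10 was 0.78, against -0.05 over all tested genes. Between LNP and bleomycin lung 1 of the 10 was called, Hmox1, which was lower, against 6.16% of all tested genes called. None of the 10 had groups that did not overlap there, against 29.9% of all tested genes. Between LNP and control lung 1 was called, Slc7a11, which was higher, against 8.04% of all tested genes called. These comparisons share libraries and are given side by side.

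**Figure D1:**
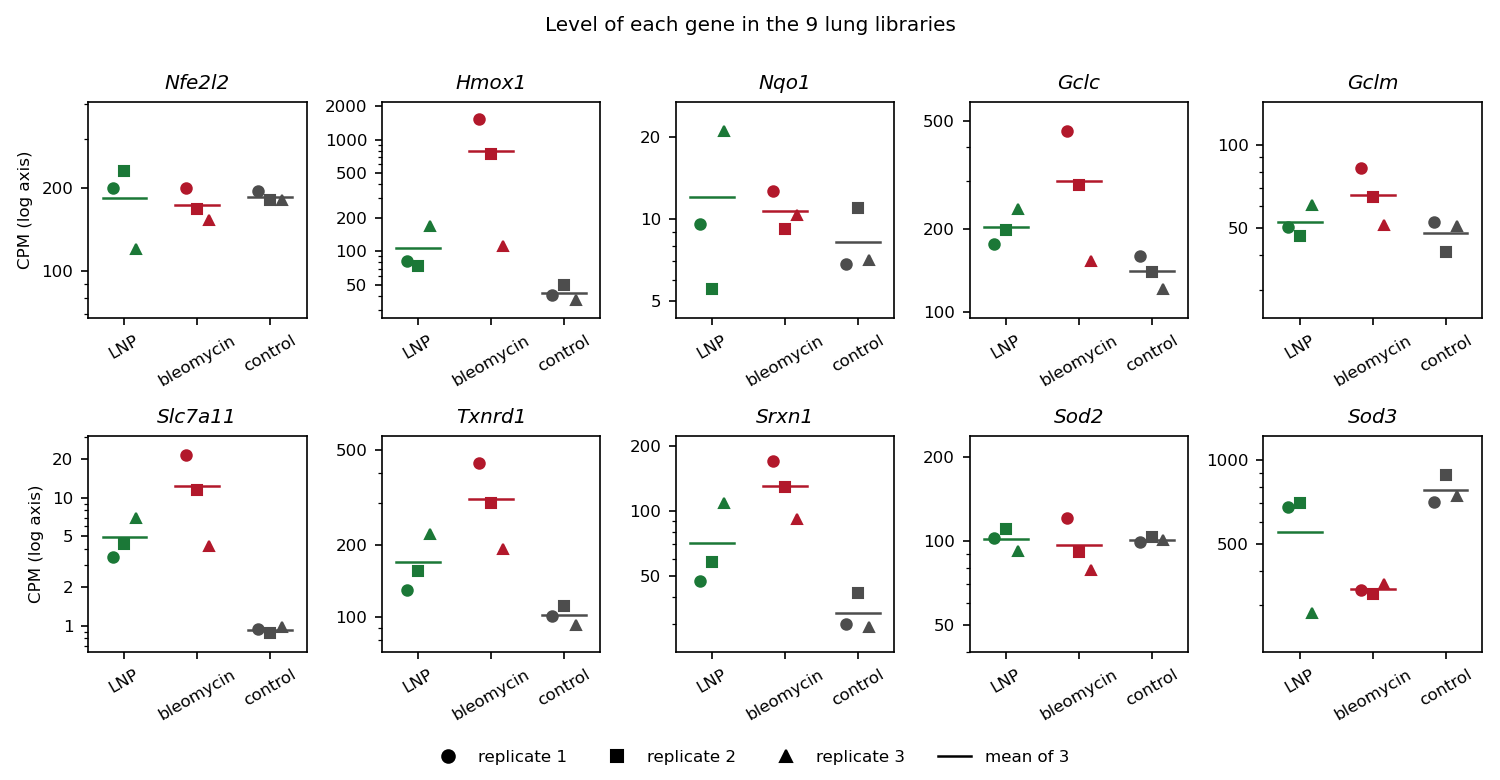
Level of each of the 10 genes in CPM (log axis) in the 3 LNP, 3 bleomycin and 3 control libraries; point shapes mark replicates and lines the mean of 3. In the Hmox1 panel the bleomycin libraries run from 111 to 1518 CPM, while the control libraries lie between 36.5 and 49.6 CPM; for Sod3 all bleomycin libraries lie below all control libraries.

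Nfe2l2, the gene of the regulator itself, had a level of 199.0, 229 and 121 CPM in LNP libraries, 199, 168 and 153 CPM in bleomycin libraries and 194, 181 and 181 CPM in control libraries. The groups overlapped throughout, and the outlying value was that of LNP replicate 3. The log2 difference of bleomycin from control was -0.10 with a 95% interval from -0.57 to 0.38 (adjusted p = 0.76). That of LNP from bleomycin was 0.08, from -0.40 to 0.56 (adjusted p = 0.86). Nfe2l2 (ENSMUSG00000015839) is listed in the deposited table on chromosome 2 from 75505857 to 75534985, minus strand. The genome build behind this and all later gene positions was not given in the sources used here, and they are not those of GRCm38.

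Hmox1 encodes haem oxygenase 1, which breaks haem down to biliverdin, iron and carbon monoxide. It had 82.3, 73.6 and 168 CPM in LNP libraries, 1518, 740 and 111 CPM in bleomycin libraries and 40.9, 49.6 and 36.5 CPM in control libraries. Every bleomycin and every LNP library was above every control library, while LNP replicate 3 lay above bleomycin replicate 3, so those groups overlapped. Against control the rise in bleomycin lung was 18.6-fold (log2 fold change 4.22 ± 0.78, SE, adjusted p = 0.0033), and it passed whichever library was left out. Its size did depend on them, at 3.33 without bleomycin replicate 1 and 4.73 without bleomycin replicate 3. LNP lung was 7.32-fold lower than bleomycin lung (log2 fold change -2.87 ± 0.73, adjusted p = 0.049). That call is at the threshold. It held without LNP replicate 3 (-3.33, adjusted p = 0.016) and without bleomycin replicate 3 (-3.39, adjusted p = 0.0084), and was lost without any other library, with adjusted p up to 0.18 and a value of -1.98 without bleomycin replicate 1. Against control, LNP lung stood at a log2 difference of 1.35, with an interval from -0.21 to 2.90 (adjusted p = 0.28). Hmox1 (ENSMUSG00000005413) is listed on chromosome 8 from 75820249 to 75827217, plus strand.

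Nqo1, a quinone reductase gene that is often used as a readout of Nrf2 activity, did not pass in any of the 3 comparisons. Its level was 9.61, 5.57 and 21.0 CPM in LNP libraries, 12.7, 9.20 and 10.4 CPM in bleomycin libraries and 6.82, 10.9 and 7.06 CPM in control libraries. The groups overlapped in all comparisons, and LNP replicate 3 held the highest value of the 9. The log2 difference of bleomycin from control was 0.38, from -0.55 to 1.30 (adjusted p = 0.52), an interval that includes a doubling. LNP differed from bleomycin by 0.17 (adjusted p = 0.85), and by -0.50 without LNP replicate 3 (adjusted p = 0.25). Nqo1 (ENSMUSG00000003849) is listed on chromosome 8 from 108114857 to 108129838, minus strand.

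Glutathione, the main small-molecule thiol of cells, depends on cystine import and on glutamate-cysteine ligase. Slc7a11 encodes the light chain of the cystine/glutamate exchanger. Its level was 3.47, 4.34 and 6.92 CPM in LNP libraries, 21.6, 11.4 and 4.23 CPM in bleomycin libraries and 0.946, 0.878 and 0.987 CPM in control libraries. The control values were close together and under 1 CPM, and all 6 other libraries were above them. The rise in bleomycin lung over control was 13.2-fold (log2 fold change 3.73 ± 0.55, adjusted p = 0.0011). It passed in all 9 fits with 1 library left out, at 3.06 without bleomycin replicate 1 and 4.13 without bleomycin replicate 3. LNP lung was 5.23-fold above control (log2 fold change 2.39 ± 0.52, adjusted p = 0.022), a call kept without LNP replicate 3 (2.09, adjusted p = 0.029) and lost without control replicate 1, 2 or 3 (adjusted p = 0.09, 0.07 and 0.084) while the value stayed between 2.34 and 2.42. LNP stood at -1.34 against bleomycin, with an interval from -2.44 to -0.24 before adjustment and an adjusted p of 0.13. It passed as lower without LNP replicate 3 (-1.66, adjusted p = 0.044) and without bleomycin replicate 3 (-1.75, adjusted p = 0.039), and stood at -0.67 without bleomycin replicate 1 (adjusted p = 0.49). Slc7a11 (ENSMUSG00000027737) is listed on chromosome 3 from 49846975 to 50398063, minus strand.

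Gclc encodes the catalytic subunit of glutamate-cysteine ligase and Gclm its modifier subunit. Gclc had 177, 199.5 and 237 CPM in LNP libraries, 459, 291 and 154 CPM in bleomycin libraries and 160.2, 140.2 and 121 CPM in control libraries. Bleomycin replicate 3 lay within the control range, and the LNP libraries lay between the control range and the upper 2 bleomycin libraries. The 2.14-fold rise of bleomycin over control passed the test (log2 fold change 1.10 ± 0.32, adjusted p = 0.027). It did not pass without bleomycin replicate 1 (0.66, adjusted p = 0.11), without bleomycin replicate 2 (adjusted p = 0.065) or without control replicate 1, 2 or 3 (adjusted p = 0.057, 0.073 and 0.093). LNP differed from bleomycin by -0.56 (adjusted p = 0.31) and from control by 0.54 (adjusted p = 0.35). Gclc (ENSMUSG00000032350) is listed on chromosome 9 from 77661817 to 77701767, plus strand.

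Gclm did not pass in any comparison. It had 50.4, 47.2 and 60.8 CPM in LNP libraries, 82.6, 64.8 and 51.3 CPM in bleomycin libraries and 52.7, 41.2 and 50.9 CPM in control libraries. Bleomycin replicates 1 and 2 were above all control libraries and bleomycin replicate 3 was not. The difference of bleomycin from control was 0.46, with an interval from 0.04 to 0.88 before adjustment (adjusted p = 0.089), and it passed without LNP replicate 3 (adjusted p = 0.041) and without bleomycin replicate 3 (adjusted p = 0.038). LNP differed from bleomycin by -0.33 (adjusted p = 0.32). Gclm (ENSMUSG00000028124), on chromosome 3 from 122039206 to 122064381, plus strand, overlaps Gm17494, an RNA of the opposite strand whose counts came to 39.1% of those of Gclm. The libraries mark the strand, but whether the counting used it was not given in the sources used here. Reads of the 2 genes may therefore be mixed.

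Txnrd1 encodes the cytosolic thioredoxin reductase and Srxn1 encodes sulfiredoxin, which restores over-oxidised peroxiredoxins. Txnrd1 had 129.9, 155 and 224 CPM in LNP libraries, 443, 301 and 193 CPM in bleomycin libraries and 101, 111 and 92.4 CPM in control libraries. Srxn1 had 47.2, 57.6 and 108 CPM in LNP libraries, 169.8, 129 and 91.2 CPM in bleomycin libraries and 30.0, 41.6 and 28.9 CPM in control libraries. For both genes all LNP and all bleomycin libraries were above all control libraries, and LNP replicate 3 lay above bleomycin replicate 3. The rise of bleomycin over control was 3.07-fold for Txnrd1 (log2 fold change 1.62 ± 0.29, adjusted p = 0.003) and 3.87-fold for Srxn1 (1.95 ± 0.33, adjusted p = 0.0022), and each passed whichever library was left out. LNP stood below bleomycin by a log2 difference of -0.88 ± 0.29 for Txnrd1 (adjusted p = 0.099) and -0.87 ± 0.32 for Srxn1 (adjusted p = 0.13). Without LNP replicate 3 LNP lung was lower than bleomycin lung in both, with values of -1.12 for Txnrd1 (adjusted p = 0.016) and -1.30 for Srxn1 (adjusted p = 0.0055). Against control, LNP stood 0.74 higher for Txnrd1 (adjusted p = 0.15) and 1.08 higher for Srxn1 (adjusted p = 0.073, 0.04 without LNP replicate 1 and 0.0079 with DESeq2). Txnrd1 (ENSMUSG00000020250) is listed on chromosome 10 from 82669785 to 82733546, and Srxn1 (ENSMUSG00000032802) on chromosome 2 from 151947436 to 151951242, both on the plus strand.

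The dismutases turn superoxide into hydrogen peroxide, Sod2 in mitochondria and Sod3 outside cells, where it is abundant in the lung matrix. Sod2, also known as a target of NF-kB, had 102.5, 109.9 and 92.2 CPM in LNP libraries, 121, 91.0 and 78.6 CPM in bleomycin libraries and 99.4, 104 and 100.4 CPM in control libraries. These values overlapped in every comparison, with a bleomycin minus control difference of -0.06 and an interval from -0.42 to 0.30 (adjusted p = 0.79). LNP differed from bleomycin by 0.07 (adjusted p = 0.84). Sod2 (ENSMUSG00000006818) is listed on chromosome 17 from 13225733 to 13256285, plus strand.

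Sod3 had 674, 697 and 280.5 CPM in LNP libraries, 341, 328 and 359 CPM in bleomycin libraries and 707, 885 and 743 CPM in control libraries. The bleomycin libraries lay close together and all below the control libraries. LNP replicates 1 and 2 lay near the control range and LNP replicate 3 below the bleomycin range. Bleomycin lung was 2.27-fold below control (log2 fold change -1.18 ± 0.29, adjusted p = 0.012), a fall that passed in 8 of 9 fits with 1 library left out, the exception being without bleomycin replicate 2 (adjusted p = 0.051). LNP stood 0.68 ± 0.29 above bleomycin (adjusted p = 0.18). Without LNP replicate 3 this was 1.00 ± 0.12 (adjusted p = 0.00048). Sod3 (ENSMUSG00000072941) is listed on chromosome 5 from 52521133 to 52528760, plus strand.

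Alveolar type 2 cells, the surfactant cells, express Sod3, and their markers moved with it. The 6 markers summed to 19700, 16200 and 6485 CPM in LNP libraries, 9101, 8410 and 7759 CPM in bleomycin libraries and 22030, 28410 and 20970 CPM in control libraries, with none at 0 and 5 of the 6 called lower after bleomycin. Relative to 1000 CPM of these markers, Sod3 was at 34.2, 43.0 and 43.3 in LNP libraries, 37.4, 39.0 and 46.3 in bleomycin libraries and 32.1, 31.1 and 35.4 in control libraries. On that scale bleomycin was 1.24 times control (exact two-sided permutation p = 0.1, the smallest that 3 against 3 libraries allow) and LNP was 0.98 times bleomycin (exact permutation p = 1.0). This denominator was chosen after seeing the data. Markers of other cell types fell after bleomycin as well. All 4 club and all 5 ciliated cell markers were called lower, as were 3 of 5 endothelial markers, with 1 higher. The endothelial marker Kdr had 299, 265 and 87.1 CPM in LNP, 108, 126 and 131 CPM in bleomycin and 429, 520 and 391 CPM in control libraries. Vwf, the endothelial marker called higher, averaged 834 CPM in LNP, 1285 CPM in bleomycin and 759 CPM in control lung. The 5 endothelial markers summed to 2116 to 3287 CPM in LNP, 3115 to 3488 CPM in bleomycin and 3831 to 4620 CPM in control libraries. The part of any cell type in the fall of Sod3 was not tested. In whole-lung RNA, fewer cells of a type and less RNA per cell cannot be told apart.

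**Figure D2:**
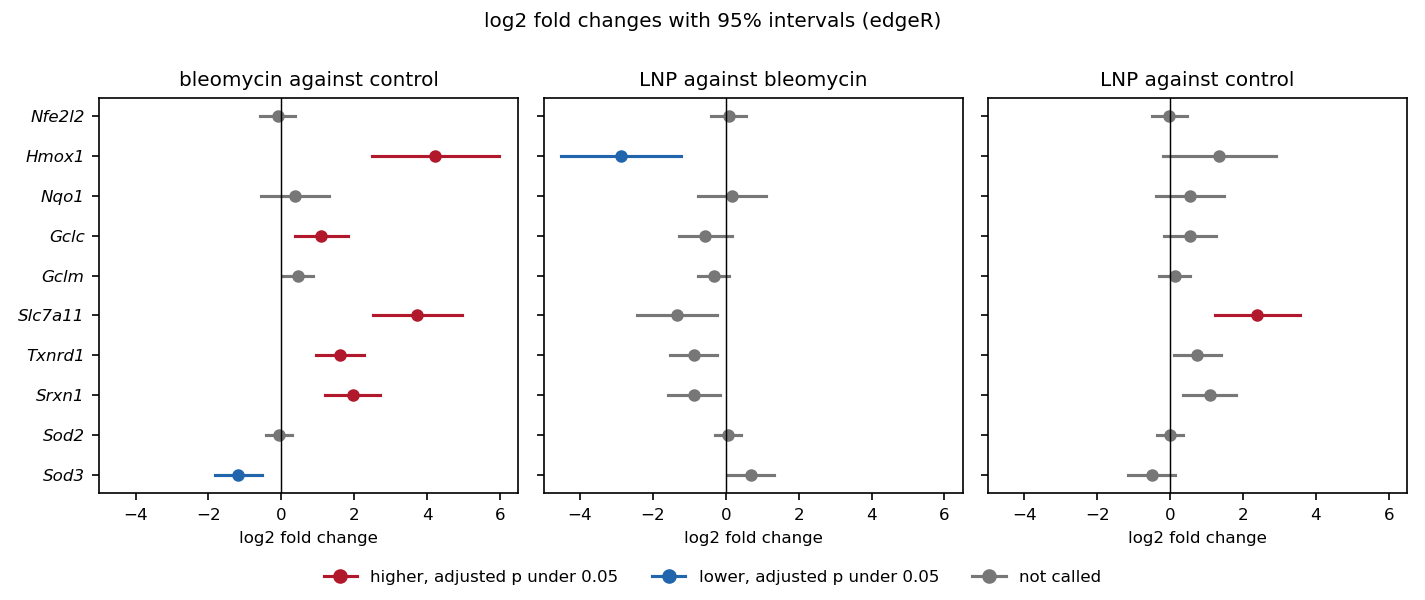
log2 fold change of each of the 10 genes with its 95% interval (lines, before adjustment for multiple testing) in bleomycin against control, LNP against bleomycin and LNP against control; red marks genes called higher, blue lower and grey not called. Hmox1 at 4.22, Slc7a11 at 3.73, Srxn1 at 1.95, Txnrd1 at 1.62 and Gclc at 1.10 are red in the first panel and Sod3 at -1.18 is blue, Hmox1 at -2.87 is the blue point of the second panel and Slc7a11 at 2.39 the red point of the third.

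For the 5 genes that bleomycin had raised, the log2 difference of LNP from bleomycin lay between -2.87 for Hmox1 and -0.56 for Gclc, and edgeR called Hmox1 alone. These values share the bleomycin libraries with the rise itself. With DESeq2 as the test, 4 of the 10 passed as lower in LNP against bleomycin, set against 5.3% of the genes it tested called lower and 14.8% in either direction. The 4 were Hmox1 (adjusted p = 0.0059), Txnrd1 (0.022), Slc7a11 (0.032) and Srxn1 (0.046). Without LNP replicate 3 edgeR called those 4 lower and Sod3 higher, against 24.7% of all tested genes called, 14.0% higher and 10.7% lower. Against control, all LNP libraries still lay above all control libraries for Hmox1, Gclc, Slc7a11, Txnrd1 and Srxn1 and below them for Sod3. Such separation was seen in 13.7% of all tested genes in the higher direction and 15.2% in the lower, 28.8% in all.

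The bleomycin libraries differed among themselves more in some of these genes than in others. Bleomycin replicate 1 held the highest value in 9 of the 10 genes, Sod3 being the exception, and bleomycin replicate 3 the lowest in 8. Over all 11926 genes that averaged 5 CPM or more, 49.2% were highest in replicate 1. The highest library exceeded the lowest 13.7-fold for Hmox1, 5.11-fold for Slc7a11, 2.98-fold for Gclc, 2.29-fold for Txnrd1 and 1.86-fold for Srxn1. It exceeded it 1.61-fold for Gclm, 1.54-fold for Sod2, 1.38-fold for Nqo1, 1.30-fold for Nfe2l2 and 1.09-fold for Sod3, so 2 of the 10 reached 3-fold. The median gene differed 1.19-fold, 0.855% of genes differed at least 3-fold, and only 13 genes differed more than Hmox1. In the control libraries the same ratio was 1.36 for Hmox1 and 1.12 for Slc7a11.

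Markers of other cell types also differed between the bleomycin libraries. For replicates 1, 2 and 3 the 5 erythroid markers summed to 16720, 7504 and 1080 CPM and the 6 neutrophil markers, none at 0, to 270.9, 483 and 647 CPM, while the 8 macrophage markers summed to 8829, 8197 and 8067 CPM. Erythroid sums thus ordered the 3 libraries as Hmox1 did. The control libraries had erythroid sums of 9986 to 12320 CPM with Hmox1 at 36.5 to 49.6 CPM, and the LNP libraries had 7906, 4540 and 1202 CPM, with the highest Hmox1 in the library with the lowest sum. The part of blood cells in the spread of Hmox1 was not tested. Macrophage sums were 6003 to 9961 CPM in LNP libraries, 8067 to 8829 CPM in bleomycin libraries and 5215 to 6349 CPM in control libraries, and neutrophil sums were 56.7 to 77.7 CPM in LNP, 270.9 to 647 CPM in bleomycin and 110.2 to 161 CPM in control libraries. Lyz2 made up much of the macrophage sum and was lower after bleomycin (-1.04, adjusted p = 0.032), while 6 of the 8 macrophage markers were higher. Siglecf was not called but lay lower, at 2.69, 2.72 and 2.46 CPM in bleomycin and 6.04, 5.56 and 4.38 CPM in control libraries. Spp1 was 64.9-fold, Trem2 25.4-fold, Marco 10.9-fold, C1qa 8.07-fold, Cd68 4.92-fold and Adgre1 3.45-fold above control in bleomycin lung. In LNP against control 5 of the 8 were higher, and in LNP against bleomycin 1 was lower, Spp1 (-1.31, adjusted p = 0.034). The part of these cells in the group differences was likewise not tested.

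A wider set of 89 genes around the pathway, in 9 lists also chosen with earlier results of these data known, placed the 10 genes in context. In bleomycin against control, 30 of the 89 were called higher and 18 lower, where 15.2% and 18.5% of all tested genes were. The shares of all tested genes given in this paragraph also stand beside the counts of each list below. In LNP against bleomycin 7 were higher and 4 lower, where 4.28% and 1.87% of all tested genes were, and in LNP against control 12 were higher and 6 lower, where 4.95% and 3.08% were. Without LNP replicate 3 the counts for LNP against bleomycin were 16 higher and 16 lower, among them all 11 called with every library, where 14.0% and 10.7% of all tested genes were. In that comparison edgeR called 0 of the 89 without bleomycin replicate 1 or 2. An unadjusted p under 0.05 was held by 22 and 24, and 1.1% and 0.475% of all tested genes were called. Without LNP replicate 1, LNP replicate 2 or control replicate 3 it called 1, 2 and 2 of the 89. There 1.26%, 1.67% and 3.15% of all tested genes were called.

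Of the 10 regulators of Nrf2, 2 were higher after bleomycin, the small Maf genes Maff and Mafk, and 1 was lower, Btrc, which encodes a subunit of a ubiquitin ligase that also targets Nrf2. Among all tested genes 15.2% were called higher and 18.5% lower. Maff had 33.7, 40.9 and 72.8 CPM in LNP libraries, 161, 129.7 and 92.5 CPM in bleomycin libraries and 33.1, 36.4 and 33.0 CPM in control libraries. All bleomycin libraries exceeded all others. Maff was 3.74-fold above control in bleomycin lung (adjusted p = 0.0013) and 2.60-fold lower in LNP than in bleomycin lung (adjusted p = 0.026). Keap1 averaged 78.6 ± 4.39 CPM in LNP, 74.9 ± 1.33 CPM in bleomycin and 86.1 ± 14.8 CPM in control lung (SD, n = 3 each) and did not pass (edgeR adjusted p = 0.29 for bleomycin against control). The list median was 0.47 in bleomycin against control. In LNP against bleomycin Maff alone was called with every library, and Maff, Mafk, Mafg and Sqstm1 were lower without LNP replicate 3.

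In the glutathione list 5 of 15 genes rose after bleomycin and 1 fell. Glrx, a glutaredoxin gene, averaged 54.9 ± 1.40 CPM in LNP, 66.3 ± 10.4 CPM in bleomycin and 31.3 ± 2.69 CPM in control lung (SD, n = 3 each, edgeR adjusted p = 0.00062 for bleomycin against control). Gpx7, a peroxidase gene of the secretory pathway, was 2.08-fold up (adjusted p = 0.0007) and Gsr, glutathione reductase, 1.70-fold up (adjusted p = 0.0033), and the peroxidase genes Gpx1 and Gpx3 also rose. Mgst1, a membrane-bound glutathione transferase gene, was 1.82-fold down (adjusted p = 0.0021). In LNP against bleomycin Gsr and Gpx7 were lower by log2 differences of -0.59 and -0.58 (adjusted p = 0.041 and 0.042). Gpx3 was lower as well (-1.33, adjusted p = 0.00057) and Ggt5 higher without LNP replicate 3. The list median for bleomycin against control was 0.22.

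In the thioredoxin list 2 of 12 genes were called higher and 3 lower after bleomycin, near the 15.2% and 18.5% of all tested genes. Of 12 genes, Prdx5 (a peroxiredoxin) and Sesn2 (a stress-induced sestrin) rose and Txnip (an inhibitor of thioredoxin), Txnrd2 (the mitochondrial reductase) and Txnrd3 fell after bleomycin, with a list median of -0.02. Thus Txnrd1 rose while both of its paralogues fell, by -0.85 for Txnrd2 (adjusted p = 0.0075) and -0.67 for Txnrd3 (adjusted p = 0.023). Txnip averaged 857 ± 279 CPM in LNP, 703 ± 37.9 CPM in bleomycin and 1307 ± 113 CPM in control lung (SD, n = 3 each, edgeR adjusted p = 0.0097 for bleomycin against control). None of the 12 was called in LNP against bleomycin by edgeR with every library, and without LNP replicate 3 Txnrd2, Prdx2 and Prdx3 were higher (adjusted p = 0.017, 0.04 and 0.015).

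Catalase, which removes hydrogen peroxide, fell with Sod3. Cat had 187, 169 and 85.0 CPM in LNP libraries, 68.9, 72.8 and 77.5 CPM in bleomycin libraries and 309, 307 and 299 CPM in control libraries. The 3 groups did not overlap, with LNP between the others. Bleomycin was 4.17-fold below control (log2 fold change -2.06 ± 0.25, adjusted p = 0.00048), LNP 2.01-fold above bleomycin (adjusted p = 0.042, and 6.5e-05 without LNP replicate 3) and 2.08-fold below control (adjusted p = 0.028). Sod1, the cytosolic dismutase gene, was also lower after bleomycin (-0.55 ± 0.15, adjusted p = 0.018), so that of the 3 dismutases Sod1 and Sod3 fell and Sod2 was not called.

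Of 6 genes that supply NADPH, the cofactor of both reductases, G6pdx and Pgd of the pentose phosphate pathway rose after bleomycin, 1.58-fold (adjusted p = 0.016) and 1.53-fold (adjusted p = 0.018). None of the 6 was called in LNP against bleomycin by edgeR, with or without LNP replicate 3. Among the genes of haem and iron handling, 6 of 8 were called higher after bleomycin and none lower, with a median of 0.74. Cd163, a macrophage receptor that takes up haemoglobin, had the largest fold (4.36, adjusted p = 0.02). The 6 also included the ferritin chains Ftl1 (1.83-fold, adjusted p = 0.0031) and Fth1 (1.72-fold, adjusted p = 0.0064), biliverdin reductase Blvra (1.63-fold, adjusted p = 0.0058) and the iron exporter Slc40a1 (1.98-fold, adjusted p = 0.0088). None of these 8 was called in LNP against bleomycin by edgeR with every library, while Cd163 (-2.71, adjusted p = 3.5e-05) and Slc40a1 (-0.99, adjusted p = 0.0088) were lower without LNP replicate 3. With every library Ftl1 alone was called in LNP against control (1.73-fold higher, adjusted p = 0.015).

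Most of the other known Nrf2 targets, mainly detoxifying enzymes, went the other way. Of 13, 8 fell and 1, Ugdh, rose after bleomycin, with a median of -0.79. Without passing, Osgin1 (1.92-fold, adjusted p = 0.084), Cbr3 (1.35-fold, 0.26) and Abcc4 (1.17-fold, 0.23) lay higher and Gstp1 (1.23-fold, 0.12) lower. Gstm1, a glutathione transferase gene, had 468, 363 and 416 CPM in LNP libraries, 198, 235.5 and 273 CPM in bleomycin libraries and 688, 1032 and 801 CPM in control libraries. Here too the 3 groups did not overlap. Bleomycin was 3.57-fold below control (adjusted p = 0.00026) and LNP 1.76-fold above bleomycin (adjusted p = 0.036). The aldehyde oxidase gene Aox1 was 3.57-fold down (adjusted p = 0.00012), Gsta3 2.65-fold (adjusted p = 0.0014) and the carbonyl reductase gene Cbr1 2.00-fold (adjusted p = 0.0015). In LNP against bleomycin 5 of the 13 were higher, Aox1, Ephx1, Gstm1, Ptgr1 and Cbr1. Gsta4 was added and Osgin1 was lower without LNP replicate 3. Club cells, which are rich in such enzymes, had 4 markers that summed to 5431 to 11710 CPM in LNP, 5760 to 5934 CPM in bleomycin and 23750 to 30130 CPM in control libraries, all 4 lower after bleomycin, and their part in these falls was not tested.

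On the side of oxidant production, 6 of 13 genes rose and 3 fell after bleomycin. Subunits of the phagocyte NADPH oxidase were among the 6, with Ncf1 at 70.2 ± 9.91 CPM in LNP, 88.7 ± 5.61 CPM in bleomycin and 34.5 ± 5.69 CPM in control lung (SD, n = 3 each). Cybb averaged 75.5 ± 12.3 CPM in LNP, 55.0 ± 3.76 CPM in bleomycin and 27.2 ± 2.16 CPM in control lung (SD, n = 3 each). Against control, Ncf1 was 2.57-fold, Ncf4 2.34-fold, Cybb 2.02-fold and Cyba 1.91-fold up in bleomycin lung (adjusted p = 0.00039, 0.00051, 0.00094 and 0.0011). In LNP against control 7 of the 13 were higher and none lower, with the smallest p for Cybb (2.77-fold, adjusted p = 0.0008) and Cyba (1.99-fold, adjusted p = 0.0032). The 7 included Duox1, at 0 in every control library and 0.153, 0.655 and 2.51 CPM in LNP libraries. They also included Nos2, at 35.5, 37.0 and 7.30 CPM in LNP libraries and 6.56 to 7.55 CPM in control libraries. In LNP against bleomycin 1 was higher, Rac2, and without LNP replicate 3 there were 4 higher and 2 lower. Of the 8 macrophage markers, 6 were higher and 1, Lyz2, lower in bleomycin against control, as given above, and 5 were higher in LNP against control. Among them Cd68 and C1qa were 4.92-fold and 8.07-fold higher in bleomycin against control and 5.35-fold and 7.09-fold higher in LNP against control. In LNP against bleomycin none of the 8 was called higher and 1, Spp1, was lower. The part of macrophages in the rise was not tested. The oxidant-producing genes that fell after bleomycin, Mpo, Nox1 and Duox2, averaged under 4 CPM in every group. Among 9 NF-kB target genes 6 were called higher and none lower after bleomycin. Groups did not overlap for 6 in the higher direction and for 2, Nfkb1 and Tnf, in the lower (25.9% and 29.6% of all tested genes). Relb was 2.28-fold up (adjusted p = 0.0013). Il1b was 4.49-fold up (adjusted p = 0.0035) and 4.58-fold lower in LNP than in bleomycin lung (adjusted p = 0.018). Without LNP replicate 3 the NF-kB list had 4 lower and 1 higher in LNP against bleomycin. Sod2, given above, did not pass.

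**Figure D3:**
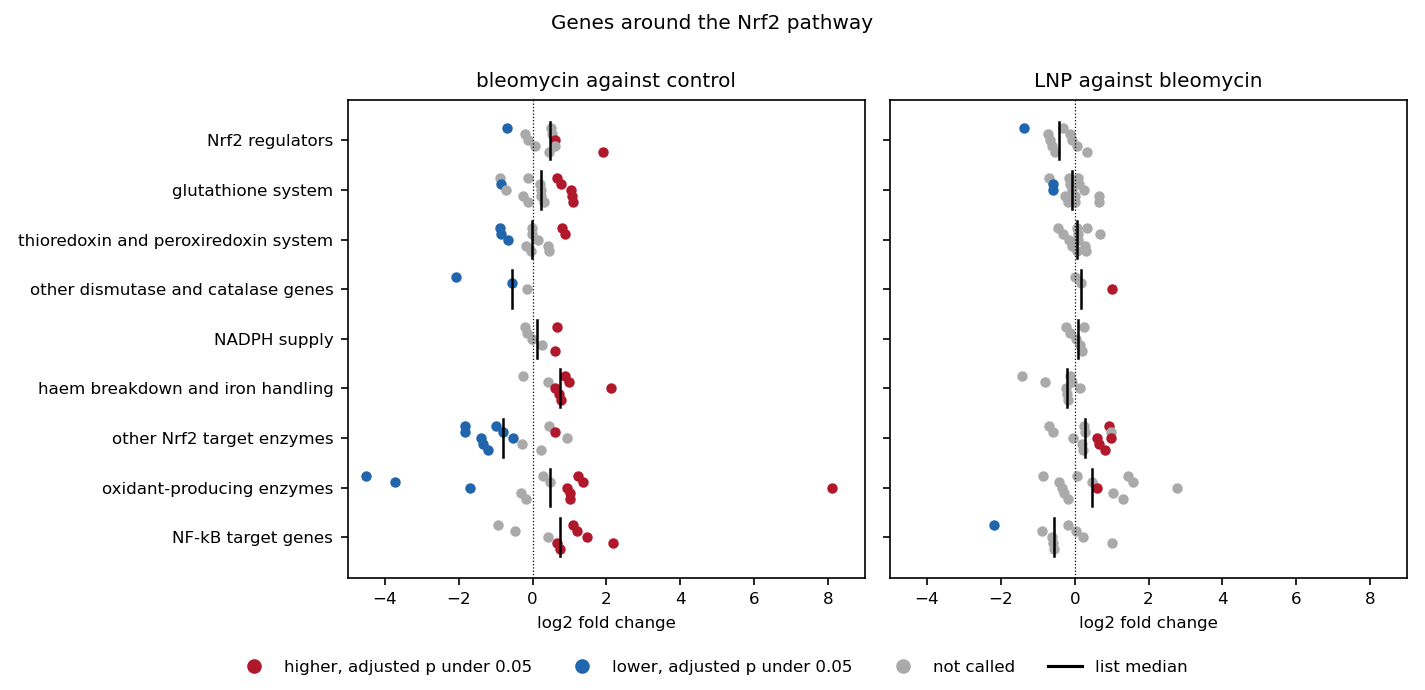
log2 fold change of the 89 genes of the 9 lists in bleomycin against control (left) and LNP against bleomycin (right); each point is a gene, red higher, blue lower and grey not called, and the black bar is the list median. On the left the haem and iron list lies to the right, with a median of 0.74, and the other Nrf2 target enzymes to the left, with a median of -0.79.

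For 8 of the 10 genes a single transcript held 95.6% or more of the counts. Gene counts equalled the sum of transcript counts in every library. The other 2 were Nfe2l2 and Txnrd1. For Nfe2l2 the main transcript held 95.4%, close to the 95.6% of Sod2. Its second transcript held 4.61% over all libraries, under the 5% minimum set for describing transcripts, and is described despite that. How reads common to several transcripts were divided was not given in the sources used here. For Nfe2l2, ENSMUST00000152371, annotated in GENCODE as a transcript without a coding sequence, took 0.607%, 0.643% and 18.2% of the counts in LNP libraries, 13.1%, 8.09% and 6.73% in bleomycin libraries and 0.478%, 0.721% and 0.798% in control libraries. The bleomycin and control libraries did not overlap, and LNP replicate 3 had the highest share while its fellow LNP libraries resembled control. The share of the main coding transcript differed by -8.65 percentage points in bleomycin minus control (exact two-sided permutation p = 0.1, the smallest possible here).

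For Txnrd1, ENSMUST00000219442 took 34.7%, 53.5% and 47.6% of the counts in LNP libraries, 68.4%, 67.4% and 73.1% in bleomycin libraries and 86.2%, 30.0% and 54.6% in control libraries. The LNP libraries were all below the bleomycin libraries (difference -24.4 percentage points, exact permutation p = 0.1), while the control libraries spanned both groups. This transcript starts 1094 bases downstream of ENSMUST00000219962 in GENCODE on GRCm38. The other main transcripts, ENSMUST00000020484 and ENSMUST00000219962, held 26.1% and 12.02% of all Txnrd1 counts.

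**Figure D4:**
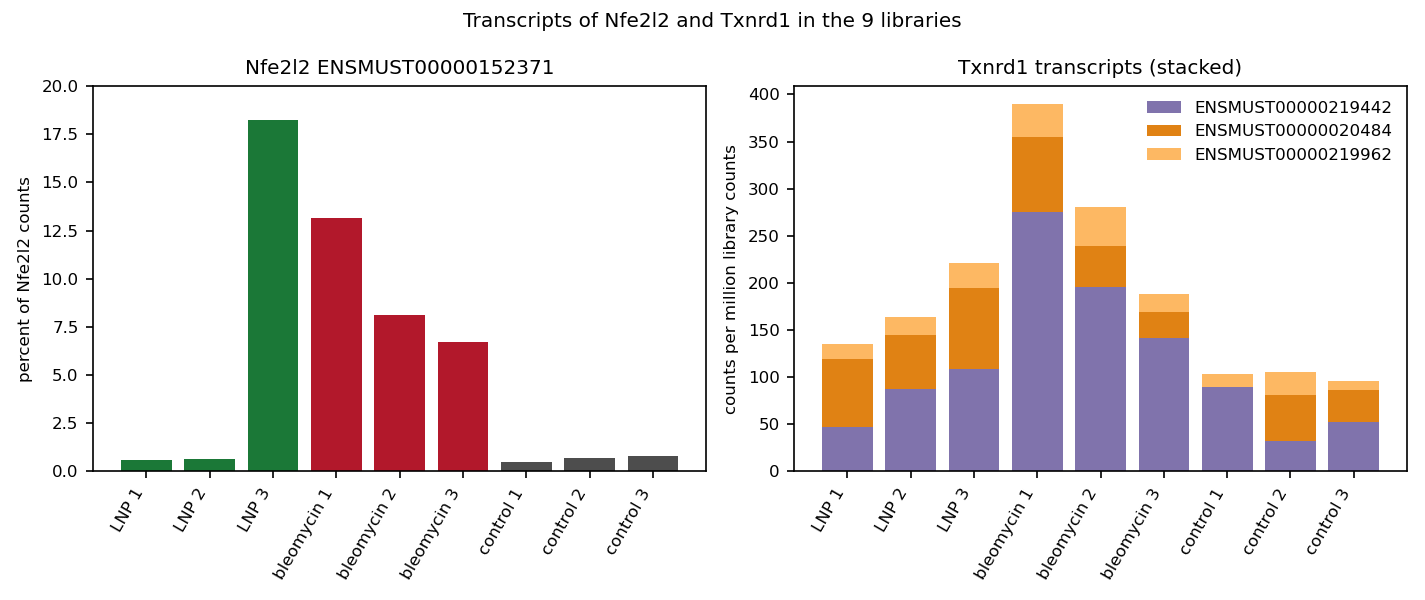
Left, percent of Nfe2l2 counts in ENSMUST00000152371 for each library; right, counts of the Txnrd1 transcripts ENSMUST00000219442, ENSMUST00000020484 and ENSMUST00000219962, stacked and scaled to the library's total. On the left, the 3 bleomycin libraries and LNP replicate 3 lie between 6.73% and 18.2% and the remaining 5 libraries under 1%.

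Per length, on the FPKM scale of the deposited table, the levels in control lung ran in the order Sod3 (191 ± 15.0), Nfe2l2 (45.0 ± 3.21), Gclc (34.3 ± 4.93), Hmox1 (22.2 ± 2.55), Txnrd1 (13.2 ± 0.72), Srxn1 (10.9 ± 1.78), Sod2 (9.29 ± 0.22), Gclm (7.08 ± 1.17), Nqo1 (4.86 ± 1.13) and Slc7a11 (0.060 ± 0.0065; SD, n = 3 each). The library ranges overlapped for the neighbours Txnrd1 and Srxn1 and for Gclm and Nqo1, and the means of Srxn1 and Sod2 differed by less than the SD of Srxn1. In bleomycin lung Hmox1 stood first at 385 ± 333 FPKM, ahead of Sod3 at 80.6 ± 6.35 FPKM but with bleomycin replicate 3 below it at 57.8 FPKM. By the mean of LNP lung Hmox1 stood second at 58.4 ± 27.3 FPKM behind Sod3 at 141 ± 61.1 FPKM. That place rested on LNP replicate 3, where Hmox1 was at 89.8 FPKM. In LNP replicates 1 and 2 Hmox1 (44.98 and 40.48 FPKM) lay below Nfe2l2 (50.19 and 58.15 FPKM) and Gclc (45.02 and 51.05 FPKM).

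The genes whose profile over the 9 libraries was most like that of each of the 10 were sought among 11805 named genes, by the root mean square difference of log2 CPM after centring. On that scale the own profile of Txnrd1 had a root mean square of 0.72 around its mean. Its nearest genes were Gpr39, Lrrn2 and Fosl2, a gene of the AP-1 family, at 0.09 to 0.11. For Srxn1 they were Mdfi, Uck2 and Cebpd at 0.12 to 0.14, and for Gclc they were Trp53i11, Btg1 and Tgif1 at 0.15 to 0.18. For Hmox1, Apold1 and Thbs1 were among the nearest, at 0.67 each, against 1.77 for its own profile. Slc7a11 was nearest to Socs3, Ch25h and Ptx3 at 0.34 to 0.37. Sod3 was nearest to Etv5, which is among the alveolar type 2 markers used above, Sec14l3 and Rph3al at 0.10 to 0.13.

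Nfe2l2 was nearest to Elavl1, Rcn2 and Pspc1, Sod2 to Pfdn6, Med30 and Trim25, and Gclm to Zfp330, Dnaja2 and Rpp30, all within 0.10. The own profiles of Nfe2l2, Sod2 and Gclm were small too, at 0.25, 0.17 and 0.28. Nqo1 was nearest to Tpbgl, Nop53 and Pla2g12a at 0.21 to 0.25. Among the 10 themselves the closest pairs were Nfe2l2 with Sod2 (0.19), Txnrd1 with Srxn1 (0.23) and Gclc with Txnrd1 (0.29), and the farthest was Hmox1 with Sod3 (2.27). Genes that vary little lie close on this measure, so the value for Nfe2l2 and Sod2 does not show that they moved together. These are descriptions over libraries that share the group differences.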

How the data were processed

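Libraries were paired-end and strand-marked, from poly(A)-selected RNA, as the labels' protocols state. Of the tools, fastp, StringTie and edgeR appear in the submitters' processing notes; aligner, build and counting rule were not given in the sources used here. Whole-number counts of genes and transcripts and FPKM of genes were deposited by the authors. The main test was the quasi-likelihood F test of edgeR 4.0.16 in R 4.3.3, with TMM scaling and filterByExpr, fitted once to the gene counts of the 9 libraries together. It covered 20794 genes, and 11877 were filtered out. The threshold was 0.05 on p-values adjusted by Benjamini-Hochberg over every gene tested. An adjusted p comes from this fit unless another tool or a left-out library is named. The script was tested on simulated data. Transcript shares were compared with exact permutation tests over libraries. Alternatives were DESeq2 1.42.0, other scalings, no filter, fits of 2 groups, a replicate block, leaving out each library, and limma 3.58.1 on log2(FPKM + 1) and log2(FPKM + 0.1) at a mean FPKM of at least 0.5, and on log2(FPKM + 1) unfiltered. Library-size scaling was added after seeing the data. Named in the text are all 10 genes, up to 4 called genes with the smallest p of each other list and comparison, or all where 5 or fewer were called, and for each of the 10 the 3 most alike genes averaging at least 5 CPM, of which 1 is not reported here. Keap1, Cd163, Kdr, Vwf, the macrophage markers, the uncalled genes of the other Nrf2 targets and the genes named without LNP replicate 3 were chosen after their values were seen. The 10 genes and the lists were chosen with earlier results of these data known.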

Additional observations from a re-analysis of the deposited data

How the results depend on the processing

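The rise of Hmox1, Slc7a11, Txnrd1 and Srxn1 and the fall of Sod3 in bleomycin against control passed under every alternative in which each was fitted apart from Sod3 without bleomycin replicate 2. Slc7a11 lay under the mean FPKM of 0.5 and was absent from those 2 limma fits. Leaving out 1 library gave 4 to 7 of the 10 genes called in bleomycin against control, 4 to 6 higher and 0 to 1 lower. For LNP against bleomycin 1 gene was called. DESeq2 called 4, and 0 were called (3 to 5 at an unadjusted p under 0.05) with no filter, with 2 groups, with the replicate block, in the 3 limma fits on FPKM and with library-size scaling; leaving out 1 library gave 0 to 5, with 0 to 1 higher and 0 to 4 lower. For LNP against control 1 was called, 2 with DESeq2 and with library-size scaling, 0 (2 to 3 unadjusted) with the replicate block and in the limma fits, and 0 to 2 with 1 library left out. Of the 89 list genes, LNP against bleomycin called 11 (7 higher, 4 lower), and 21 (11 lower) with DESeq2, 3 (1 and 2) with no filter, 2 (1 and 1) with 2 groups and with the replicate block, 4 (2 and 2) with limma on unfiltered FPKM, and 0 to 32 with 1 library left out, 0 to 16 in each direction. LNP against control called 6 lower, 3 with 2 groups, and with 1 library left out 8 to 22 in all, 5 to 15 higher and 3 to 9 lower. Over all tested genes the share called in LNP against bleomycin was 2.43% with no filter, 1.6% with 2 groups and 2.08% with the replicate block. In the 3 limma fits it was 8.49%, 9.17% and 1.65%, and with 1 library left out 0.475% to 24.7%. Leaving out 1 library gave 3.34% to 10.9% in LNP against control and 20.4% to 42.6% in bleomycin against control. The cause of the changes in these counts was not tested. Library-size scaling moved the median of all genes to 0.16 in LNP against bleomycin, from 0.04, and the genes called to 6.17% higher and 1.22% lower, against 4.28% and 1.87%.

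Genes near 0, none of them called, changed sign under some alternatives. For LNP against control, Nfe2l2 was 0.0108 with DESeq2, 0.0151 with relative log expression scaling, 0.0238 with 2 groups and 0.038 with library-size scaling, and it ran from -0.214 to 0.246 with 1 library left out. Sod2 was -2.34e-05 with the replicate block there and ran from -0.0568 to 0.109, and Nqo1 from -0.0867 to 0.883. For LNP against bleomycin those ranges were -0.116 to 0.309 for Nfe2l2, -0.496 to 0.509 for Nqo1 and -0.0589 to 0.261 for Sod2, and for bleomycin against control -0.256 to 0.0646 for Sod2. The share of the largest Txnrd1 transcript ran from -28.5 to -19.1 points in LNP minus bleomycin. Deviations from the group means correlated little between libraries of the same replicate number (r at most 0.04). In bleomycin against control these r were 0.024, 0.017 and 0.025, each above those of unlike numbers (at most 0.002). Such low values cannot exclude that the numbers pair the libraries. With the block, the Hmox1 call in LNP against bleomycin (-2.60, adjusted p = 0.14) and the Slc7a11 call in LNP against control (adjusted p = 0.05) were lost, and 6 genes were called in bleomycin against control as before. With 3 libraries a group, the spread between them limits what could be detected.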
